A study of Mus musculus with 2 samples.

Results

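The cells described here were 239 of 872 cells sorted from the cortex of 5xFAD mice. In them transcripts of P2ry12, the purinergic receptor of resting microglia, outnumbered those of Cst7, a marker of disease-associated microglia, and the further limits below were met. They were chosen by their own counts, read as unique molecular identifiers (UMIs, 1 per captured transcript). Barcodes counted as cells if 200 genes or more were detected and mitochondrial transcripts took no more than 10% of UMIs. Such a cell, called kept below, was P2ry12-dominant with at least 2 P2ry12 UMIs and more P2ry12 than Cst7 UMIs. Malat1, a nuclear long non-coding RNA, had to take 0.1% to 4% of its UMIs. The class II antigen presentation genes Cd74, H2-Aa, H2-Ab1 and H2-Eb1 together had to take under 0.3%. This left 163 of 555 control cells and 76 of 317 photoconversion cells.

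The series asked how loss of the meningeal lymphatic vessels bears on microglia of an amyloid model. All mice were male 5xFAD hemizygous animals on C57BL/6J, a transgenic amyloid line whose transgenes are driven by the Thy1 promoter, active mainly in neurons. They were 4 months old at the start and 5.5 months by the sample labels. The control group received 5 uL of Visudyne, a photosensitiser, in the cisterna magna and no light. In the photoconversion group the same injection was followed by 5 steps of red light at 689 nm through the skull, which ablates meningeal lymphatic vessels. Both groups were treated again after 3 weeks and the cortex was taken 3 weeks later. Live single cells positive for CD45 and CD11b and negative for Ly6G were sorted from 3 pooled mice per group into 1 library per group. Mice without the transgene or without Visudyne were not analysed here. With 1 library per group no test was possible, and each difference below is one between these 2 libraries. The 95% intervals cover counting error only.

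Microglia are the resident macrophages of the brain. In the healthy brain they hold a homeostatic program kept up by TGF-beta and CSF1 receptor signalling and by transcription factors such as SALL1 and PU.1. P2RY12, a Gi-coupled receptor for ADP, steers the extension of microglial processes toward sites of injury, and CX3CR1 receives fractalkine from neurons. Around amyloid plaques microglia lower this program and raise genes of lipid handling, lysosomes and phagocytosis such as Apoe, Trem2, Lpl and Cst7, the disease-associated state.

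Upstream sequence is shown for 3 receptor genes of the homeostatic program that head the values below: P2ry12, which chose the cells, its neighbour P2ry13, a second ADP receptor, and Cx3cr1. On mm10 (GRCm38) P2ry12 spans chr3:59216272-59262871 and P2ry13 chr3:59207892-59210882, both on the minus strand and 5389 bases apart. Cx3cr1 lies at chr9:119901616-120069879, also on the minus strand. The RefSeq promoter entries of GRCm38.p6 were searched on both strands for GAGGAA and GGAAGT, overlapping stretches of the core bound by the ETS factor PU.1. At least 1 of these words stood in the same window of 36.7% of 32851 promoters, GAGGAA in 23.3% and GGAAGT in 19.7%. The RefSeq start of P2ry13 is the last base of the span above. That of P2ry12, at 59262985, lies 114 bases upstream of the end of its span, and that of Cx3cr1, at 120068296, lies 1583 bases inside it. The 250 bases before each RefSeq start follow, 5′ to 3′ on the strand of the gene, with a matching word in capitals.
P2ry12 (chr3:59262986-59263235, minus strand): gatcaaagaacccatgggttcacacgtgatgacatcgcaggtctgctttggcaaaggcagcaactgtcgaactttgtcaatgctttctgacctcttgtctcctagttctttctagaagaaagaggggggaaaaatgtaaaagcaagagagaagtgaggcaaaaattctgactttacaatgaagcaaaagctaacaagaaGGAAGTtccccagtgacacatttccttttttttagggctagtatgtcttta
P2ry13 (chr3:59210883-59211132, minus strand): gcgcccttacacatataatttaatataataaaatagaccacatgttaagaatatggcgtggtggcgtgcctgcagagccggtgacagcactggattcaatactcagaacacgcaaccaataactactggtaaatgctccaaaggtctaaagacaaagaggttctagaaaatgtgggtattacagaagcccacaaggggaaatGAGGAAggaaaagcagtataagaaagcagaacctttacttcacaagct
Cx3cr1 (chr9:120068297-120068546, minus strand): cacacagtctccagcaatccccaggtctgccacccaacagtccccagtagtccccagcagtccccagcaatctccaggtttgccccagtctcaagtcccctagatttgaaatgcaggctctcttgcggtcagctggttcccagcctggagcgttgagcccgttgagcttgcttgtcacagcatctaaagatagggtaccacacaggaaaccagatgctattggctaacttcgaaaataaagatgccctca
GGAAGT began 51 bases before the RefSeq start of P2ry12 and GAGGAA 48 bases before that of P2ry13. Neither word was found in the Cx3cr1 window. A match describes letters and is not evidence that a factor is bound.

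The label was checked against marker genes. All 12 genes of a microglia list were detected in the P2ry12-dominant cells of both libraries, and their sum was 41118 UMIs per 1000000 (CPM) in the control and 36839 CPM in the photoconversion library. The same sum in the other kept cells was 26340.5 and 24507 CPM. Of the defining genes of other cells, 5 of 8 border macrophage markers and 3 of 7 monocyte markers were at 0 in the control, and 6 and 4 in the photoconversion library. Their sums were 144 and 114 CPM for border macrophages and 69.0 and 26.3 CPM for monocytes. Border macrophage markers were 1.27 (0.982 to 1.63) and 1.97 (1.32 to 2.92) times their level in the other kept cells. Of 8 lymphocyte markers, only 2 were detected among chosen control cells and 1 among chosen photoconversion cells. No chosen cell held 3 or more UMIs of this list. The lymphocyte sums, at 25 and 11 UMIs, thus rest on those few genes and were 2.51 and 3.38 times their level in the other kept cells. Monocyte markers were 0.686 and 1.08 times, astrocyte markers 0.691 and 1.04 times and oligodendrocyte markers 0.564 and 0.294 times. Markers of other cells were thus not all lower in the chosen cells. Red blood cell markers were at 0 in the chosen cells of both libraries.

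Some chosen cells carried transcripts of other cell types. At least 3 UMIs of another list stood in 14 control and 10 photoconversion cells. In the control, 1 cell of 6981 UMIs held 245 UMIs of endothelial and mural markers with 2 of P2ry12 and 1 of Tmem119, and the list reached 402 CPM in this library against 0 in the other. Another control cell of 10047 UMIs held 31 monocyte UMIs and 2 of P2ry12. These cells met the rule while their leading genes went against the label. They were left in, and the main results are also given over the 149 control and 66 photoconversion cells without such markers. No kept cell barcode occurred in both libraries.

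The upper Malat1 limit cut a continuous range. The highest share among chosen cells was 3.96% in either library, and the next cells above the limit stood at 4.09% for the control and 4.23% for the photoconversion library. This limit alone turned away 83 control and 35 photoconversion cells. They were shallow, with a median of 1249 and 1757 UMIs. Their Tmem119, at 2295 and 2746 CPM, and Cx3cr1, at 2561 and 3016 CPM, stood above the chosen cells. Ecscr did so too, at 781 and 778 CPM. Crybb1 was 354 against 339 CPM in the chosen control cells, but 238 against 426 CPM in the photoconversion library. The lower Malat1 limit sat in a gap, between 0.0488% and 0.303% for the control and between 0 and 0.390% for the photoconversion library. The 22 control and 8 photoconversion cells turned away by it alone had Cx3cr1 at 253 and 339 CPM and the ribosomal protein gene Rpl13 at 4681 and 5762 CPM, against 2877 and 3166 CPM in the chosen cells. P2ry12 and Cst7 were tied in 3 control cells and 1 photoconversion cell, and 6 and 1 of the chosen cells had exactly 2 P2ry12 UMIs.

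The class II limit acted on few cells and mostly on 1 library. It alone turned away 7 photoconversion cells, of which the nearest stood at 0.447%, and 1 control cell at 13.8%. The highest shares among chosen cells were 0.287% and 0.227%. The 7 photoconversion cells had Apoe at 4136 CPM, against 3019.6 CPM in the chosen cells of that library, and a median mitochondrial share of 6.54%. The 1 control cell had Apoe at 45939 CPM and no Cx3cr1 or Crybb1 UMI.

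The share of P2ry12-dominant cells among kept cells was 29.4% for the control (25.6 to 33.4%, Clopper-Pearson) and 24.0% after photoconversion (19.4 to 29.1%). The difference was -5.39 percentage points (-11.5 to 0.933), so it did not exceed counting error. Without the Malat1 limits the shares were 48.3% and 37.5%, and the difference was -10.7 points with an interval (-17.6 to -3.74) that excluded 0, so the limits decide whether the difference passes counting error. Cells with the mirrored rule, Cst7 at least 2 UMIs and above P2ry12 under the same other limits, numbered 99 (17.8%) and 68 (21.5%). They are called Cst7-dominant below and serve as the closest contrast.

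The chosen cells had similar depth in the libraries. Their median was 3785 UMIs and 1455 genes in the control and 4012 UMIs and 1496 genes in the photoconversion library, for totals of 652507 and 342435 UMIs. Other kept cells had medians of 2132 and 3146 UMIs, and Cst7-dominant cells of 10657 and 11312 UMIs. The contrast with Cst7-dominant cells is therefore also one of depth, and the part of depth in it was not tested. P2ry12 itself had a median of 12 UMIs per cell (2 to 44) for the control and 15 (2 to 43) for the photoconversion library. Cst7 had a median of 1 in both, and P2ry12 was at least 5 times Cst7 in 127 of 163 and 59 of 76 cells.

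The next values describe the chosen cells beside the others. The cells were selected on P2ry12 and Cst7, so differences of linked genes follow in part from the choice, and these values are given without a test. Of 1892 genes with at least 100 UMIs in each library, 83 (4.39%) were at least 2-fold higher and 48 (2.54%) at least 2-fold lower than in the other kept cells in both libraries. Against Cst7-dominant cells these were 61 (5.00%) and 39 (3.19%) of 1221 genes. Scaling by TMM, a trimmed mean of ratios, moves all log2 ratios down by 0.32 and 0.36 against other cells and by 0.30 against Cst7-dominant cells, and changes the counts to 17 higher and 86 lower, and to 29 and 68. Under median-of-ratios scaling they were 17 and 90, and 29 and 67. No gene passed 1.5-fold in opposite directions in the 2 libraries.

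**Figure D1:**
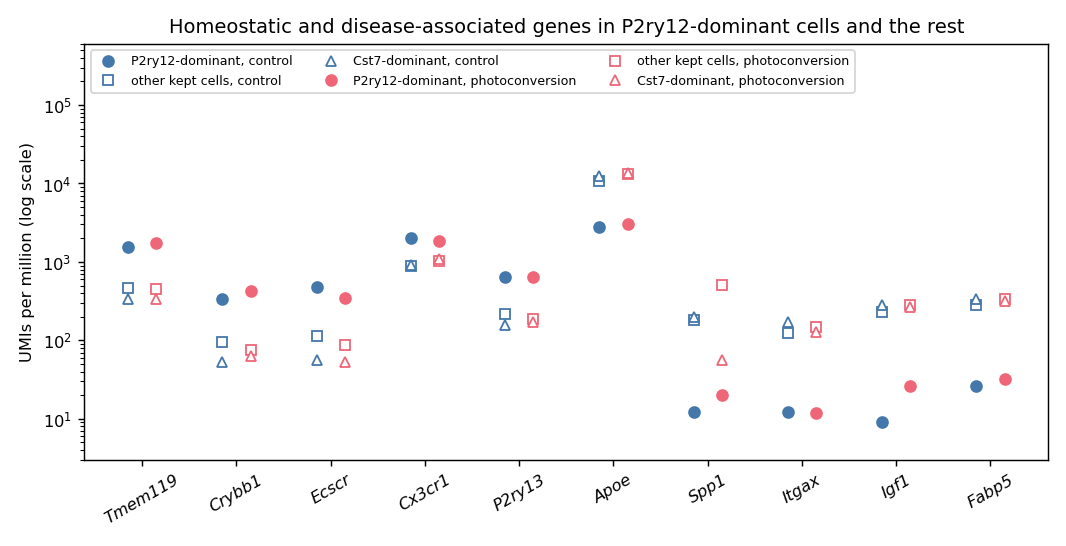
Level of 10 genes in CPM (vertical axis, log scale) in P2ry12-dominant, other kept and Cst7-dominant cells of the control and photoconversion libraries; each point is the sum over the cells of 1 library. Ecscr, Crybb1, Tmem119 and P2ry13 are highest in the P2ry12-dominant cells of both libraries and Apoe is lowest there.

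Surface and secreted genes of the homeostatic program were higher in the P2ry12-dominant cells. All 22 measured genes of this list were above the Cst7-dominant cells in both libraries, 11 of them by 2-fold or more, while under TMM or median-of-ratios scaling 19 were above and 8 passed 2-fold, with Fcrls, Golm1 and Itgb5 no longer above in both. The median log2 ratio was 1.06 for the control and 1.03 for the photoconversion library, against 0.041 and -0.021 over all genes. Ecscr, a small membrane protein named for endothelial cells and carried by microglia, stood at 477 CPM in chosen, 115 in other and 56.6 in Cst7-dominant control cells, and at 342, 86.9 and 52.8 CPM in the photoconversion library. The ratio to Cst7-dominant cells was 8.42 (6.39 to 11.2) and 6.47 (4.50 to 9.48). Crybb1, a lens crystallin that marks mature microglia, stood at 339, 94.9 and 52.9 CPM in the control and at 426, 76.0 and 63.1 CPM in the photoconversion library. Both genes thus kept the same order of the 3 cell groups in either library.

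Tmem119, the transmembrane protein used to tell microglia from other macrophages, reached 1572 CPM in control and 1729 CPM in photoconversion P2ry12-dominant cells. In the Cst7-dominant cells it was 333 and 334 CPM, a ratio of 4.72 (4.18 to 5.33) and 5.18 (4.47 to 6.02). The difference was smaller for Olfml3, a secreted olfactomedin-domain protein, at 1.76 and 1.51 times, and for Cst3, cystatin C, at 1.86 and 1.68 times. The list also held metabolic genes. Slc2a5, a fructose transporter, was 3.83 and 2.78 times its level in Cst7-dominant cells, Lpcat2, which remodels phospholipids, 3.57 and 3.36 times, and Ltc4s, the leukotriene C4 synthase, 3.12 and 2.79 times. Txnip, an inhibitor of thioredoxin and of glucose uptake, was 5.96 and 3.30 times that level. Fcrls and Itgb5, both often listed as microglial signature genes, were near parity at 1.08 and 1.16 for Fcrls and 1.11 and 1.15 for Itgb5.

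Receptors followed the same direction with more spread. Their median log2 ratio to Cst7-dominant cells was 0.96 (control) and 0.81 (photoconversion), against 0.041 and -0.021 over all genes. Of 17 measured receptor and signalling genes, 14 were higher than in Cst7-dominant cells in both libraries and 2 lower, with 6 past 2-fold, and 13 were higher and 4 past 2-fold after either rescaling, when Csf3r was no longer above in both. Among purinergic receptors P2ry13 was 4.08 (3.41 to 4.90) and 3.72 (2.99 to 4.65) times the Cst7-dominant level, the UDP receptor P2ry6 2.95 and 2.19 times, and the adenosine receptor Adora3 3.44 and 3.56 times. Gpr34, a lysophosphatidylserine receptor, was 2.01 and 2.26 times. The ATP-gated channel P2rx4 was not higher, at 0.908 and 0.874, and the related P2rx7 went 1.95 and 0.924. P2ry13, P2ry6 and Adora3 were thus above the Cst7-dominant cells in both libraries, P2rx4 in neither and P2rx7 in the control alone.

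Cx3cr1, the fractalkine receptor, stood at 2003 CPM in chosen against 905 CPM in Cst7-dominant control cells, and at 1849 against 1077 CPM in the photoconversion library. The ratios were 2.21 (2.04 to 2.41) and 1.72 (1.55 to 1.91). These intervals did not overlap, but they cover counting error only, and a difference between the conditions was not tested. Csf1r, whose signal microglia need to survive, was 1.84 and 1.79 times, and the adhesion receptor Adgrg1 5.10 and 4.29 times. Tgfbr1 and Tgfbr2, the chains of the TGF-beta receptor, differed: Tgfbr1 was 1.90 and 1.79 times and Tgfbr2 0.924 and 0.815 times. Outside the list, the interferon-gamma receptor chain Ifngr1 (4.12 and 3.83) and Lst1, a leukocyte adaptor (4.92 and 6.25), were among the genes furthest above the other kept cells in both libraries.

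Transcription factors differed less than the surface genes. Their median log2 ratio to Cst7-dominant cells was 0.46 (control) and 0.43 (photoconversion), against 0.041 and -0.021 over all genes. Of 11 measured, 8 were higher than in Cst7-dominant cells in both libraries, 7 after either rescaling, and only Maf and Sall1 passed 2-fold, Maf alone after rescaling. Sall1, the microglial identity factor, was 2.13 and 2.53 times and Maf 2.88 and 2.61 times. Irf8, needed for microglial development, was 0.986 and 1.08 times. Bhlhe41 was 0.687 (0.513 to 0.913) for the control and 1.13 (0.833 to 1.51) for the photoconversion library.

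Genes of the disease-associated state were lower in the P2ry12-dominant cells. All 8 measured genes of the Trem2-independent stage, all 9 of the Trem2-dependent stage and all 19 other disease-associated genes were below the Cst7-dominant cells in both libraries, also after either rescaling. Median log2 ratios of these lists were -1.06 and -0.94, -1.30 and -1.12, and -1.46 and -1.29, against 0.041 and -0.021 over all genes. Cst7 belongs to this state and set the choice. Apoe, the lipid carrier, stood at 2802 CPM in chosen, 10697 in other and 12587 in Cst7-dominant control cells, and at 3019.6, 13171 and 13736 CPM in the photoconversion library. Its ratio to the Cst7-dominant cells was 0.223 (0.212 to 0.234) and 0.220 (0.206 to 0.234). Apoe thus differed by nearly the same factor in both libraries.

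The growth factor Igf1 was 0.0323 and 0.0996 times its Cst7-dominant level, the fatty acid binding protein Fabp5 0.0765 and 0.101 times and the integrin Itgax 0.0726 and 0.0907 times. Each of these 3 rests on 17 UMIs or fewer in the chosen cells of a library. Lipoprotein lipase, Lpl, was 0.267 and 0.362 times. Spp1, osteopontin, was 0.0610 and 0.361 times, with 8 and 7 UMIs in chosen cells, and its Cst7-dominant level itself was 201 CPM in the control and 56.7 CPM in the photoconversion library. Trem2, the lipid receptor of this state, differed much less, at 4141 against 6152 CPM in the control and 3764 against 6627 CPM in the photoconversion library. The tetraspanin Cd9 was 0.870 and 0.887 times. Neither Trem2 nor Cd9 was therefore near absent from P2ry12-dominant cells.

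Housekeeping lists differed as well. Ribosomal protein genes were lower than in Cst7-dominant cells for 78 of 79 genes in both libraries, none by 2-fold, and glycolysis genes for 10 of 12, with 4 past 2-fold, and after TMM scaling for 78 and 11. Median log2 ratios were -0.48 and -0.34 for ribosomal and -0.81 and -0.87 for glycolysis genes, against 0.041 and -0.021 over all genes. Gapdh stood at 919.5 against 2216 CPM in the control and 876 against 1912 CPM in the photoconversion library. The first complement genes ran the other way, with C1qa at 1.44 and 1.26 times and all 8 measured complement genes above 1, but only 2 of them above and 4 below under TMM.

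**Figure D2:**
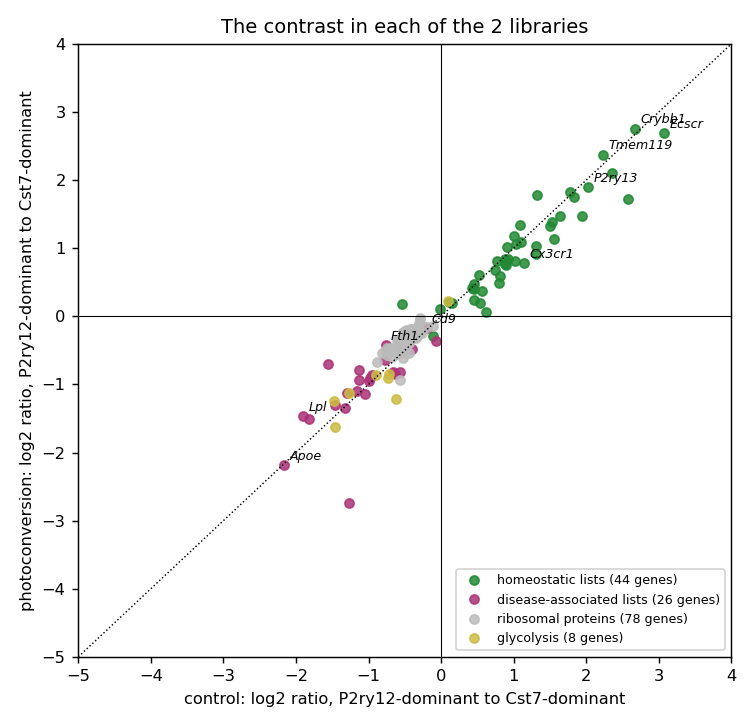
Log2 ratio of P2ry12-dominant to Cst7-dominant cells in the control (horizontal) and photoconversion library (vertical), 1 point per gene with at least 100 UMIs over the P2ry12-dominant cells of both libraries, coloured for 44 homeostatic, 26 disease-associated, 78 ribosomal and 8 glycolysis genes; the dotted line marks equal ratios. Homeostatic genes lie mostly above 0 and disease-associated genes below 0 on both axes.

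The P2ry12-dominant cells varied widely among themselves. The share of a cell's UMIs from the homeostatic surface list had a median of 12.1% (1.45 to 31.3%) for the control and 11.1% (5.61 to 28.0%) for the photoconversion library. Ribosomal protein genes took a median of 13.3% (2.32 to 33.8%) and 16.8% (2.60 to 29.5%). Apoe ranged from 0 to 3.31% of a cell's UMIs in the control, with a median of 0.0879%, and from 0 to 4.42% in the photoconversion library, with a median of 0.10%. Cells with and without appreciable Apoe were thus present in both libraries.

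This variation followed the depth of the cells. The 49 control and 18 photoconversion cells under 2500 UMIs were compared with the 64 and 32 cells of 4500 UMIs or more. Summed homeostatic surface genes were 196082 CPM in shallow and 104528 CPM in deep control cells, and 167121 and 101599 CPM in the photoconversion library. Ribosomal protein genes ran from 56374 to 180654 CPM and from 92768 to 200206 CPM. Shallow cells of either library thus held relatively more homeostatic surface and fewer ribosomal transcripts. This was not particular to homeostatic genes. The shallow to deep ratio was 1.88 and 1.64 for the surface list in the control and photoconversion libraries, 1.70 and 1.69 for lysosomal genes and 1.48 and 1.67 for MHC class I genes. Trem2-dependent disease-associated genes were 1.45 and 1.36, and Trem2-independent ones 1.13 and 1.23.

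Single genes shared this order in part. Ecscr was 2.76 times higher in shallow than deep cells of the control and 4.56 times in the photoconversion library, Selplg, the P-selectin ligand, 2.55 and 2.21 times, and C1qa 2.01 and 1.89 times. Summed transcription factors were even, at 0.987 and 0.998. Crybb1 departed from the other markers, at 0.471 (0.244 to 0.833) for the control and 1.05 (0.564 to 1.83) for the photoconversion library. Mitochondrial transcripts were 1.85 and 1.90 times higher in the shallow cells and Malat1, whose share the rule limited, 1.51 and 1.41 times. Their part in the homeostatic share was not tested.

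The relation was also described with each cell thinned to 1000 UMIs. Random thinning leaves the expected share of each list in a cell unchanged, so it cannot test the relation. Over 159 control and 75 photoconversion cells Spearman's rho between the original depth and the thinned ribosomal share was 0.74 and 0.56, and between homeostatic and ribosomal shares -0.71 and -0.67. The rho of depth with the homeostatic share was -0.61 and -0.30. The homeostatic share had a rho of 0.17 and 0.20 with Malat1 and of 0.35 and 0.33 with mitochondrial transcripts. Both were weaker than the rho with depth in the control, but in the photoconversion library only that with Malat1 was. These points share 1 library each, and 2 shares of the same UMIs constrain each other, so the values are descriptions.

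**Figure D3:**
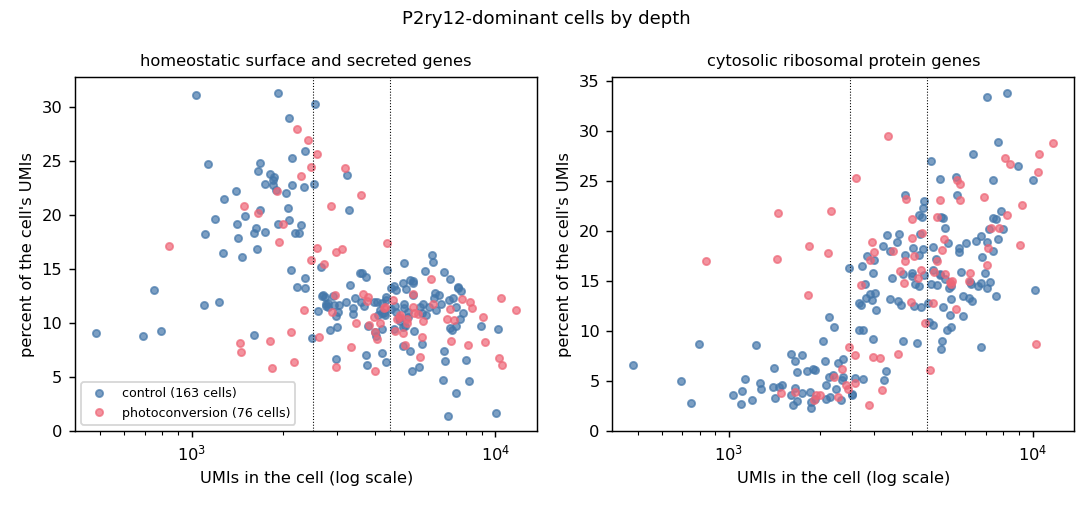
Share of UMIs from the homeostatic surface list and from ribosomal protein genes (vertical axes, percent) against UMIs per cell (horizontal, log scale) for the 163 control and 76 photoconversion cells; dotted lines mark 2500 and 4500 UMIs. The homeostatic share declines and the ribosomal share climbs with depth in both libraries.

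The chosen cells were also grouped by their own Cst7 count, which the rule used, so these values are a description and support nothing else. Cst7 was at 0 UMIs in 56 control (34.4%) and 28 photoconversion cells (36.8%), and at 5 or more in 14 and 6 cells. In the control, Apoe stood at 2047 CPM in cells without Cst7, 2391 CPM with 1, 2939 CPM with 2 to 4 and 4599 CPM with 5 or more Cst7 UMIs. In the photoconversion library the same steps were 1398, 1285, 4921 and 4030.4 CPM. Tmem119 was 1908 CPM in control cells without Cst7 and 767 CPM with 5 or more, and 2065 and 851 CPM in the photoconversion library. The disease-associated lists did not rise step by step. The Trem2-independent list summed to 39090.0, 36647, 37537 and 50770.4 CPM over the control steps, and the Trem2-dependent list to 12691, 10571, 11582 and 16942 CPM. Trem2 itself was 4755 CPM without Cst7 and 4555 CPM at the highest step of the control, and 4078 and 3706 CPM in the photoconversion library. Median depth went from 2366 to 6760.5 UMIs and from 2799 to 8800.5 UMIs over the same steps, so the count of Cst7 and the depth of a cell cannot be told apart here.

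Between the libraries, most genes of the P2ry12-dominant cells lay close together. Of 1215 genes with at least 100 UMIs, 20 (1.65%) were at least 1.5-fold higher and 43 (3.54%) at least 1.5-fold lower in the photoconversion library. The median log2 ratio was -0.046. Thinned to 1000 UMIs the counts were 7 and 14. The 100 UMI minimum was then applied to the thinned sums, so fewer genes were tested and the counts are not directly comparable. With the 3% of cells richest in each gene left out 43 became 66. Fewer transcripts per cell and another mix of cells cannot be told apart in these sums.

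The homeostatic surface list summed to 120270 CPM in control and 115742 CPM in photoconversion cells, a ratio of 0.962 (0.951 to 0.974). Of its 22 genes 5 lay above and 17 below 1, with a median log2 ratio of -0.18, where 57.3% of all 1215 tested genes lay below 1. The counting interval excluded 1 for 1 gene on the higher and 12 on the lower side, and over all tested genes for 109 and 115 of 1215. The split of the list was 6 above and 16 below under median-of-ratios scaling and unchanged under TMM. None of the surface genes passed 1.5-fold.

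Olfml3 stood at 2429 CPM in control and 1930.3 CPM in photoconversion cells (0.795, 0.725 to 0.871), and Ecscr at 477 and 342 CPM (0.717, 0.575 to 0.889). Slc2a5 stood at 497 and 333 CPM (0.670, 0.537 to 0.832). Serinc3, a multipass membrane protein, stood at 2843 and 2354 CPM (0.828, 0.761 to 0.900). These 4 lay below the control over all chosen cells. Ecscr and Serinc3 did not in every depth class, while Olfml3 and Slc2a5 did, though not beyond counting error in each. Under 2500 UMIs, at middle depth (2500 to under 4500 UMIs) and at 4500 UMIs or more, Ecscr was 0.829, 1.16 (0.789 to 1.70) and 0.502. Serinc3 was 0.665, 1.13 (0.968 to 1.31) and 0.783, and Slc2a5 0.368, 0.818 (0.550 to 1.20) and 0.762. Depth thus moved with these ratios, and its part in them was not tested. In contrast, Cst3, which made up most of the list's UMIs, was level at 79415 and 80120.3 CPM (1.01, 0.994 to 1.02). The markers Crybb1 and Tmem119 lay above 1. Crybb1 went from 339 to 426 CPM (1.26, 1.01 to 1.56) and Tmem119 from 1572 to 1729 CPM (1.10, 0.992 to 1.22). Without the cells bearing markers of other types these ratios were 1.13 (0.889 to 1.43) and 1.03 (0.923 to 1.16), so both intervals included 1, and that of Olfml3 was 0.708.

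Receptor genes summed to 11551 and 10659 CPM (0.923, 0.887 to 0.960), with 4 above and 13 below of 17, where 57.3% of all tested genes lay below 1. In the 3 depth classes, from shallow to deep, the list was 0.839, 1.01 (0.940 to 1.08) and 0.933. P2ry6 stood at 449 and 309.5 CPM (0.689, 0.547 to 0.864) and Csf1r at 2803 and 2400.5 CPM (0.856, 0.788 to 0.930). Cx3cr1 was 0.923 (0.838 to 1.02), Gpr34 0.966 (0.877 to 1.06) and P2ry13 0.991 (0.838 to 1.17), so none of these 3 differed beyond counting error. P2ry12, which the rule used, was 3716 and 3431 CPM. Thinned to 1000 UMIs the split of the receptor list was 7 above and 8 below. Transcription factors summed to 3085 and 3215 CPM (1.04, 0.967 to 1.12). Bhlhe41, a basic helix-loop-helix repressor, was the 1 of them past 1.5-fold, at 107 and 204 CPM (1.91, 1.35 to 2.69), from 70 UMIs in 48 control and 70 UMIs in 33 photoconversion cells.

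**Figure D4:**
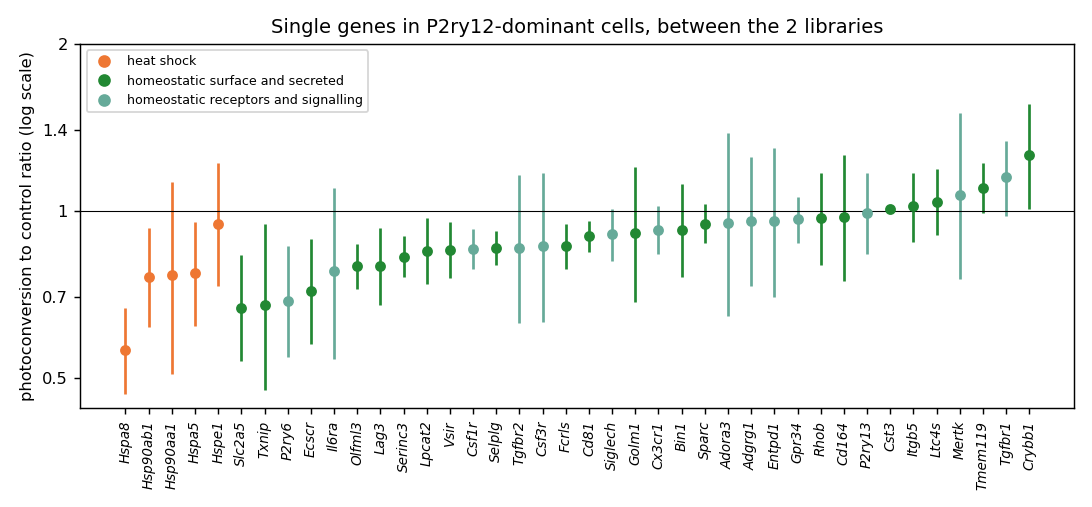
Photoconversion to control ratio (vertical axis, log scale) of 40 homeostatic surface, receptor and heat shock genes in P2ry12-dominant cells (horizontal axis, ordered by ratio, heat shock genes first), with 95% counting intervals. Olfml3 (0.795) and Hspa8 (0.561) lie below 1 and Crybb1 (1.26) above.

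Heat shock genes were lower in the photoconversion library. The list stood at 2412 CPM in control and 1705 CPM in photoconversion cells (0.707, 0.642 to 0.778). All 7 measured genes lay below 1, with a median log2 ratio of -0.37. Over all tested genes 57.3% lay below 1 and the median was -0.046. Hspa8, the constitutive HSC70 chaperone, stood at 858 and 482 CPM (0.561, 0.469 to 0.669), and Hsp90ab1, an HSP90 isoform, at 513 and 391 CPM (0.762, 0.619 to 0.934). The list ratio was 0.646, 0.611 and 0.749 in cells under 2500, between 2500 and 4500 and of 4500 or more UMIs, so it lay below 1 at each depth. Thinned to 1000 UMIs it was 0.798, with 3 genes below 1 and 2 above of those then measured. In Cst7-dominant cells the list ratio was 0.882 and that of Hspa8 0.710 (0.633 to 0.795), so lower Hspa8 was not confined to the P2ry12-dominant cells.

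Ribosomal protein genes were higher. They summed to 156256 CPM in control and 176466 CPM in photoconversion cells (1.13, 1.12 to 1.14), with 77 of 79 above 1 and a median log2 ratio of 0.18. Of all tested genes 42.7% lay above 1. Rplp1, a stalk protein of the large subunit, was 1.31 (1.24 to 1.39). The ratio of the list was 1.65 in cells under 2500 UMIs, 1.02 at middle depth and 1.11 at 4500 UMIs or more. In the same depth classes the homeostatic surface list was 0.852, 1.08 and 0.972 and Olfml3 0.613, 0.891 and 0.836. The surface list was thus not below the control at middle depth, whereas the heat shock genes were, and for Olfml3 the interval there (0.754 to 1.05) included 1.

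Disease-associated genes showed no common direction. The Trem2-independent list was 39428 and 41938 CPM (1.06, 1.04 to 1.09), with 6 genes above and 2 below, where 42.7% of all tested genes lay above 1. Fth1, the ferritin heavy chain, was 1.25 (1.18 to 1.32) and H2-D1, a class I heavy chain, 1.26 (1.14 to 1.39). The whole list of class I and loading genes was instead 0.918 (0.855 to 0.985), with 9 of 16 below 1, against 57.3% of all tested genes. The Trem2-dependent list was 0.972 (0.936 to 1.01), though 5 of its 7 measured genes lay above 1, against 42.7% of all tested genes. Trem2 itself was 0.909 (0.850 to 0.972). The other disease-associated genes were 0.879 (0.841 to 0.919), with 4 above and 13 below. Apoe stood at 2802 and 3019.6 CPM (1.08, 0.998 to 1.16). As 358 of its 1034 photoconversion UMIs came from 1 cell, its ratio was 0.820 (0.738 to 0.910) without the richest 3% of cells of each library, and it was 2.09, 0.508 and 1.20 in the 3 depth classes. No direction can be read for Apoe.

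Metabolic and lysosomal lists summed below the control over all chosen cells. Lysosomal genes stood at 29889 and 27629 CPM (0.924, 0.902 to 0.947), with 17 of 22 below 1 and Lgmn, an asparaginyl endopeptidase, at 0.846 (0.792 to 0.903). From shallow to deep cells the lysosomal list was 0.884, 1.09 (1.04 to 1.14) and 0.891, so it was above the control at middle depth. Glycolysis genes were 0.872 (0.800 to 0.949), with 9 of 12 below, Ldha, lactate dehydrogenase, at 0.647 (0.470 to 0.878) and Pkm, pyruvate kinase, at 0.722 (0.539 to 0.958). Nuclear genes of oxidative phosphorylation were 0.932 (0.902 to 0.963), with 56 of 81 below, against 57.3% of all tested genes. In the depth classes they were 1.11 (0.975 to 1.26), 0.961 and 0.889. Complement genes (0.977) and phagocytic receptors (0.943) stayed closer to 1.

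Interferon, chemokine and proliferation lists depended on 1 photoconversion cell. That cell of 10251 UMIs, with 18 P2ry12 and 8 Cst7 UMIs and 4 UMIs of the monocyte list, held 462 of 866 interferon UMIs (53.3%), 283 of 743 cytokine and chemokine UMIs (38.1%) and 170 of 459 proliferation and histone UMIs (37.0%). The list ratios were 1.22 (1.12 to 1.33), 1.24 (1.13 to 1.36) and 1.38 (1.22 to 1.55) with it. Without it the photoconversion levels were 1216, 1385 and 870.0 CPM, and the control levels without the richest control cell for each list were 1885, 1687 and 949 CPM. Cxcl10, an interferon-induced chemokine, had the highest ratio of all genes (34.9, 18.4 and 642 CPM), with 217 of 220 photoconversion UMIs in this cell. Ccl12 (2.22) had 257 of 303 UMIs in 1 cell and was 0.576 without the richest 3%. These values thus rest largely on single cells.

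Of the other genes at the ends of the range, some were spread over many cells and others rested on few. On the higher side stood Ptp4a2, a protein tyrosine phosphatase, at 132 and 213 CPM (1.62, 1.17 to 2.24) from 52 and 40 cells, and Ncf1, the p47phox subunit of the NADPH oxidase, at 118 and 187 CPM (1.58, 1.12 to 2.24) from 56 and 39 cells. Prelid1, a mitochondrial phospholipid carrier, was 1.82 but 0.998 after thinning. On the lower side Atp2c1, a Golgi calcium pump, was 0.356. Ccl3, an inflammatory chemokine, was 0.390, with 157 of its 313 control UMIs in 1 cell, and 0.830 without the richest 3%. Ccl5 was 0.373, with 67 of 92 control UMIs in 1 cell, and 1.48 (0.762 to 2.83) without the cells bearing markers of other types. Ifitm3, an interferon-induced membrane protein, was 0.437, with 55 of 240 in 1 cell.

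The same contrast in the Cst7-dominant cells gives the other end of the range. There the homeostatic surface list was 1.05 (1.04 to 1.06) against 0.962 in the P2ry12-dominant cells, ribosomal protein genes 1.03 against 1.13, and receptors 1.01 against 0.923. Csf1r was 0.881 (0.814 to 0.952) in the Cst7-dominant cells and 0.856 in the P2ry12-dominant cells, so it lay below the control in either group. Cx3cr1 was 1.19 (1.08 to 1.31) in the Cst7-dominant cells, against 0.923. Whether the 2 cell groups differ in their response was not tested, as each has 1 library per condition.

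**Figure D5:**
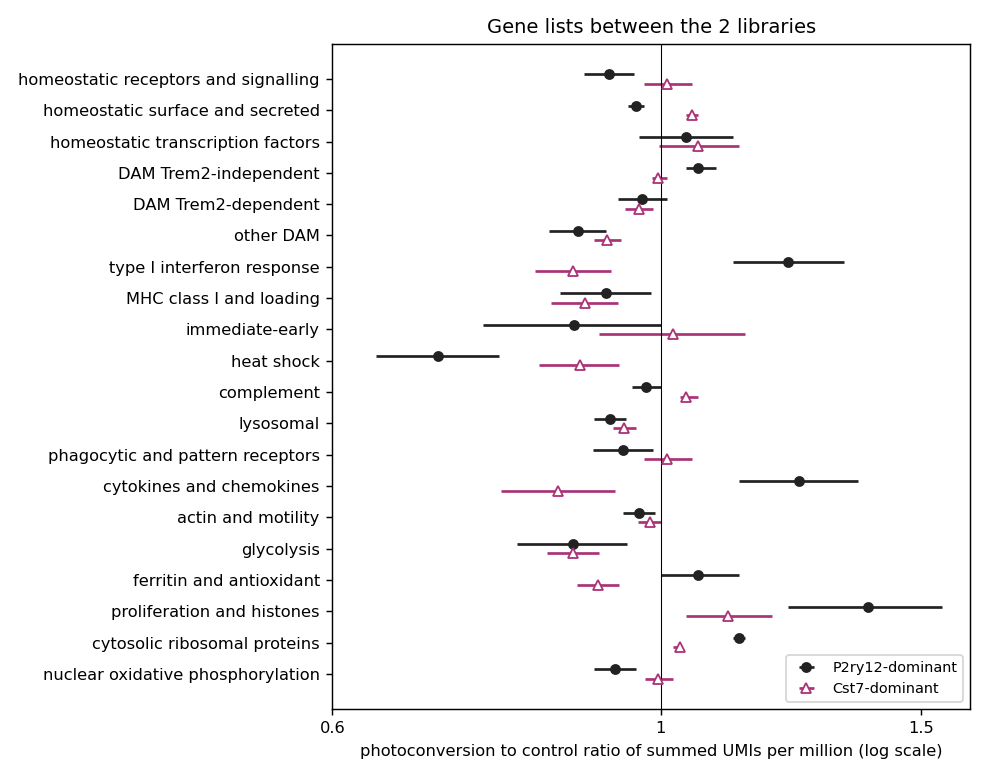
Photoconversion to control ratio (horizontal, log scale) of the summed CPM of 20 gene lists with 95% counting intervals, filled circles for P2ry12-dominant and open triangles for Cst7-dominant cells; DAM marks disease-associated lists. Heat shock genes (0.707) lie lowest among P2ry12-dominant cells; the interferon, cytokine and proliferation lists above 1 rest on 1 cell.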

How the data were processed

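The authors deposited raw UMI counts per gene and barcode for 2 libraries of sorted cortical cells. The submitters' processing notes name bcl2fastq, Cell Ranger and the mm10 build, and the file headers give Cell Ranger 3.0.2. The members and gene lists were chosen with earlier results of these data known. UMIs were summed over the cells of each group and scaled to their total (CPM). Intervals are at 95%, conditional binomial (exact) for ratios and Clopper-Pearson for shares. Log2 ratios had 0.5 counts added to each sum. List genes needed 20 UMIs over the sums compared. The genes that set the choice were left out of counts of genes. Named genes were the given markers, the homeostatic lists, the 12 highest and 12 lowest in each comparison and up to 4 per other list. Rpl13 was picked after their values were seen. Of the lists, 2 entries are not analysed here, and some genes are not reported here. No doublet caller was run and doublets were left in. An alternative left out barcodes with at least 3 UMIs of another cell type's markers and the 5% of kept barcodes with most UMIs. Calculations used Python 3.11.15, numpy 2.4.6, scipy 1.17.1 and pandas 2.3.3, and edgeR 4.0.16 in R 4.3.3 for TMM factors only. The ratio steps were tested on simulated data. Alternatives covered the cell filters, the rule, thinning, cell weights, scaling, gene minimums and single cells.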

Additional observations from a re-analysis of the deposited data

Results flagged for a closer look

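Several gene lists had photoconversion to control ratios on opposite sides of 1 in the P2ry12-dominant and the Cst7-dominant cells, and 3 were flagged. The homeostatic surface list was 0.962 in the P2ry12-dominant and 1.05 in the Cst7-dominant cells. The type I interferon list was 1.22 and 0.873. Cytokines and chemokines were 1.24 and 0.853. Not flagged were receptors (0.923 and 1.01), complement (0.977 and 1.04), phagocytic receptors (0.943 and 1.01) and immediate-early genes (0.874 and 1.02). Ferritin and antioxidant genes (1.06 and 0.907) and Trem2-independent genes (1.06 and 0.996) were not flagged either. With 1 library per group these differences between the cell groups were not tested. For the interferon and cytokine lists 1 photoconversion cell held 53.3% and 38.1% of the UMIs, and without the richest 3% of P2ry12-dominant cells the ratios were 0.762 and 0.838, on the same side of 1 as in the Cst7-dominant cells.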

How the results depend on the processing

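No paired analysis was possible because each group has 1 library. Summed ratios between libraries stayed on the same side of 1 under all 15 alternatives for homeostatic surface genes (0.924 to 0.989), receptors (0.887 to 0.949), heat shock (0.666 to 0.798) and ribosomal protein genes (1.09 to 1.20). Leaving out cells with other cell types' markers, or the richest 3%, was chosen after seeing the data. Leaving out doublets and leaving out other markers gave the same 149 control and 66 photoconversion P2ry12-dominant cells, so for ratios between libraries they count as 1 alternative. Leaving out 5 cells takes a larger part of the photoconversion than of the control cells, by construction. Causes of the changes below were not tested. Genes near the 100 UMI minimum have wide counting intervals, which limits what single genes show at this depth. Thinning, other cells or another UMI minimum also change how many genes are tested. The counts of genes under those settings are therefore not over the same genes.

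The control share of 29.4% was 34.3% with 400 genes per cell, 34.1% with a mitochondrial limit of 5% and 48.3% without Malat1 limits, where the photoconversion share was 37.5% and the difference, -10.7 points (-17.6 to -3.74), then passed counting error.

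Between libraries the 20 genes higher and 43 lower were 7 and 14 after thinning, 100 and 189 with at least 50 UMIs, 3 and 7 with 200, 2844 and 3390 with 1, and 12 and 163 without the 5 richest cells. Weighing cells equally gave 36 higher, and leaving out the richest 3% 66 lower.

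Against other kept cells the 83 genes higher and 48 lower were 33 and 27 without doublets, 4 and 15 after thinning, 17 and 86 with TMM, 17 and 90 with median-of-ratios, 137 and 81 with 50 UMIs, 37 and 31 with 200, and 835 and 333 with 1. There were 136 higher without Malat1 limits and 17 with cells weighing equally. Against Cst7-dominant cells the 61 and 39 were 8 and 9 after thinning, 29 and 68 with TMM, 29 and 67 with median-of-ratios, 124 and 59 with 50 UMIs, 26 and 25 with 200, and 950 and 364 with 1, with 108 higher without Malat1 limits and 40 without doublets.

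The homeostatic surface ratio between libraries was 0.943 with at least 3 P2ry12 UMIs, without doublets and without other markers, 0.979 without Malat1 limits, 0.924 thinned, 0.928 with cells weighing equally and 0.989 with median-of-ratios. Heat shock was 0.798 thinned. Ribosomal genes were 1.09 with P2ry12 at least 2 times Cst7 and without the 5 richest, 1.11 without Malat1 limits, 1.12 without the class II limit, 1.15 without doublets or other markers, 1.18 thinned, 1.20 with equal weights and 1.16 with median-of-ratios.

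Against other kept cells, surface genes in the control (1.71) were 1.73 with 400 genes, 1.68 with 5% mitochondrial, 1.75 with 3 P2ry12 UMIs or P2ry12 at least 2 times Cst7, 2.0 without Malat1 limits, 1.70 without the class II limit, 1.54 without doublets, 1.63 thinned, 1.58 with equal weights, 1.37 with TMM or median-of-ratios and 1.77 without other markers. In the photoconversion library (1.70) they were 1.75, 1.94, 1.57, 1.58, 1.60, 1.33, 1.32 and 1.72 for P2ry12 at least 2 times Cst7, no Malat1 limits, no doublets, thinning, equal weights, TMM, median-of-ratios and no other markers. Trem2-independent genes in the control (0.537) were 0.509 with 5% mitochondrial, 0.525 with P2ry12 at least 2 times Cst7, 0.516 without Malat1 limits, 0.548 without doublets, 0.618 thinned, 0.684 with equal weights, 0.431 with TMM and 0.429 with median-of-ratios. In the photoconversion library (0.540) the same settings gave 0.526, 0.515, 0.526, 0.563, 0.596, 0.638, 0.422 and 0.418, with 0.558 without the class II limit and 0.564 without other markers.

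Several ratios between libraries crossed 1. Without doublets or other markers, without the 5 richest and without the richest 3%, interferon genes were 0.783, 0.694 and 0.762, cytokines 0.932, 0.820 and 0.838, proliferation 0.898, 0.911 and 0.942, Ccl12 0.713, 0.486 and 0.576, Ifit3 0.294, 0 and 0.192, Hist1h2ap 0.475, 0 and 0.445, and Hmgb2 0.735, 0.660 and 0.794. Thinned, interferon genes were 0.976, cytokines 0.929, actin genes 1.03, Actb 1.06 and Prelid1 0.998. With equal weights actin genes were 1.05 and Actb 1.04. Ccl5 was 1.48 without doublets or other markers, class I genes 1.01 without the class II limit and complement 1.0 with median-of-ratios.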
